A study of Mus musculus with 71 samples.

Results

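The 53 genes described here were grouped as transcription factor genes of mesoderm, endoderm and trophoblast, the lineages that mouse embryonic stem cells (mESCs) do not belong to. They were chosen by name, with no threshold on a measured value, out of 24138 RefSeq genes with a symbol in the RNA-seq tables. Earlier results of these data were known when they were chosen. Polycomb repressive complex 2 (PRC2) places trimethylation on lysine 27 of histone H3 (H3K27me3) over such genes, and the mark is known to go with low transcription until the lineage is formed. Linker histone H1 binds nucleosomes at the entry and exit of DNA and compacts the chromatin fibre.

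The cells were wild-type (WT) R1 mESCs and R1-derived H1-TKO mESCs, in which H1c, H1d and H1e were disrupted with CRISPR/Cas9 and 1 guide common to the 3 genes. The H1-TKO line came from picked single-cell clones, the guide was not aimed at the other H1 genes, and both lines were grown on gelatin with LIF and serum, without any treatment. RNA-seq of polyadenylated RNA covered 2 libraries per genotype, and H3K27me3 ChIP-seq was taken from 1 peak list per genotype. The study states biological replicates, but nothing ties them to separate clones, so p-values measure the spread between these libraries.

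The genotype of each RNA-seq library was taken from the name in its table. The sample labels of the 4 RNA-seq libraries give the genotypes the other way round, and under those labels every direction of expression given below would be reversed. The study's own per-library source columns carry the names used here, and their values matched those of the tables in all 1999 accessions that were read, within 0.001 of the value, or within 0.001 for values under 1. The labels and names of the 2 peak lists did not differ.

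Between 6951619 and 10538507 reads were recovered per library. Expression is given as the normalized count, the reads of a RefSeq accession divided by the size factor of its library. The targeted genes were low throughout: H1f2 (H1c) stood at 11.6 and 56.7 in the WT and at 18.7 and 7.37 in the H1-TKO libraries, H1f3 (H1d) at 3.88 and 41.4 against 1.10 and 0, and H1f4 (H1e) at 5.43 and 19.6 against 0 and 2.11. Their mRNAs largely lack a poly(A) tail, so these values do not check the genotype. Of 8 stem cell markers 6 were tested and 3 were higher in H1-TKO mESCs, among them Sox2 (3958 and 5441 in WT, 9654 and 9460 in H1-TKO mESCs), while all 4 Nanog accessions stood at 0, where reads shared by accessions may be left uncounted. Between the 2 replicates, 13.3% of 11113 tested accessions were at least 2-fold apart in the WT and 6.52% in the H1-TKO libraries. The median log2 fold change of a chromosome, relative to that of all accessions, was 0.52 on chromosome 1, -0.22 on chromosome 8 and -0.35 on chromosome 11, and -5.58 over the 5 tested accessions of chromosome Y.

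The promoters of 5 genes are shown because they carry the strongest H3K27me3 peaks or a clear difference in expression. Sox18, Mixl1 and Eomes had the top WT scores among the 53 genes, and their upstream sequence lay inside a WT peak. Hnf4a and Wt1 differed in expression without a peak in either list. Each is the 250 bases upstream of the outermost annotated protein-coding start in NCBIM37 (mm9), written along the strand of the gene. Every CpG is in capitals, and which start the cells use was not tested.
Sox18, chr2:181406346-181406595, minus strand: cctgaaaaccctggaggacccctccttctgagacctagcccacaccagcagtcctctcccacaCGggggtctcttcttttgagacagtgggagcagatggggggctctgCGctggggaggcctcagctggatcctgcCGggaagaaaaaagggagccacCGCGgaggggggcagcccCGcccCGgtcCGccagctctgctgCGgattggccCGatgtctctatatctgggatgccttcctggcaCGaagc
Mixl1, chr1:182627166-182627415, minus strand: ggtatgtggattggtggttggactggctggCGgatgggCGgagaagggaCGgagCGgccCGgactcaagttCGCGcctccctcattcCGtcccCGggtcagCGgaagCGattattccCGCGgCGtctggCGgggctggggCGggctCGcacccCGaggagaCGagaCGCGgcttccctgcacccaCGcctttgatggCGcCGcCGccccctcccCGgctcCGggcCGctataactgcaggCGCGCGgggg
Eomes, chr9:118387080-118387329, plus strand: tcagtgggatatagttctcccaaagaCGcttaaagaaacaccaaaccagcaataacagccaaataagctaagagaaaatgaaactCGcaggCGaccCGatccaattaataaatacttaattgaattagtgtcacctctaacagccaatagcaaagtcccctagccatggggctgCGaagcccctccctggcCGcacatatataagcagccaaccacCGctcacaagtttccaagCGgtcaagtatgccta
Hnf4a, chr2:163332294-163332543, plus strand: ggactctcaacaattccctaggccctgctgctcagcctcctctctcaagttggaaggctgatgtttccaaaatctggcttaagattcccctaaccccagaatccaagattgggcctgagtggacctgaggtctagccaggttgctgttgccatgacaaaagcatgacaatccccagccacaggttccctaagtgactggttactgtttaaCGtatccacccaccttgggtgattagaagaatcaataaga
Wt1, chr2:104966436-104966685, plus strand: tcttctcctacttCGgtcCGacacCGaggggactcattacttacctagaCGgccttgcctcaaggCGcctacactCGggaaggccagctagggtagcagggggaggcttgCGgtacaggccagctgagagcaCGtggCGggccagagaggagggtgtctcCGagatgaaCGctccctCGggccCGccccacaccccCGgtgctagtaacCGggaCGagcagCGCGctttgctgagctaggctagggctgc
The Mixl1 sequence held 31 CpG, that of Wt1 18, of Sox18 11, of Eomes 8 and of Hnf4a only 1. Over all 53 genes the median was 11, against 10 over 19923 protein-coding genes, and 58.5% of the 53 against 50.7% of all held at least 10. The dinucleotide CG reads the same on both strands. Members with a WT peak had a median of 11 CpG and members without one 18, whereas over all genes the medians were 14 and 9. These sequences cover the outermost start only. The WT peaks of Gata2 and Gata3 lay 230 and 193 bp from another start.

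The transcripts of these genes were scarce in both genotypes. Of the 53 genes, 17 had an accession that reached 10 normalized counts on average over the 4 libraries and were tested, and 36 were not. Twist1 lay just inside this limit with a mean of 10.0 and Gata6 just outside with 8.65. No read was assigned to 10 genes in any library, among them Eomes, Sox17, Foxa2, Tfap2a, Tbx1, Tal1 and Runx1, which have several accessions each. Reads shared by accessions of 1 gene may be left uncounted, so a 0 at these 7 genes does not show that the gene was silent. Evx2, Hand2 and Osr1 were at 0 with a single accession. Reads were found for 26 other genes under the limit, and 23 of the 53, those at 0 included, had 10 or fewer reads over the 4 libraries. Per kilobase of exon, Hand1 was the highest of the tested genes in WT mESCs at 59.7 normalized counts and Mesp2 the next at 19.6, against 1718 for Pou5f1, the stem cell factor Oct4.

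Among the 17 tested genes, Hnf4a and Tfap2c rose and Sox18, Wt1 and Twist1 fell in H1-TKO mESCs, by limma with a Benjamini-Hochberg adjusted p under 0.05. The other 12 did not pass. Over all 11113 tested accessions 9.84% were called higher and 10.7% lower, so 2 and 3 of 17 genes stand near the background. The libraries of the 2 genotypes did not overlap in 6 tested genes with higher and 8 with lower values in H1-TKO, where 32.2% and 34.2% of all accessions did so. edgeR on the recovered reads called 2 higher and 3 lower, where 9.51% and 9.95% of all accessions were called, and its 2 were Hnf4a and Cdx1. DESeq2 called 3 and 5, where 10.2% and 11.6% of all were, with Hand1 and Tbx20 among the lower. limma without a filter on low values called 1 and 3 of 43 genes, where 3.02% and 3.38% of all were. Without a trend, or with an unmoderated linear model, limma called 0 and 0 of the 17, where 0.387% and 0.333% of all accessions were called without a trend and 0% and 0% with the unmoderated model, while 4 and 5 genes without a trend and 0 and 4 with the unmoderated model had an unadjusted p under 0.05. The median log2 fold change over the 18 member accessions was -0.48, against -0.03 over all. This median depends on the limit of 10 for the mean. Sox18, Wt1, Twist1, Tbx20 and Meox1 reached it only through their WT libraries, and Mixl1 only through its H1-TKO libraries. With 1 library left out, the lone library of that genotype is assumed to vary like the pair of the other genotype, whose spread, with the trend over all accessions, then sets the p-values. The number called higher was 1 without H1-TKO replicate 1 and 1 without H1-TKO replicate 2, where 1.85% and 1.79% of all accessions were called higher. The number called lower was 4 of 17 without H1-TKO replicate 1, with Hand1 beside Sox18, Wt1 and Twist1, and 3 of 17 without H1-TKO replicate 2, with Tbx20 beside Sox18 and Wt1. In these 2 fits 3.57% and 3.47% of all accessions were called lower, against 10.7% in the fit of all 4 libraries. The fit of all 4 libraries also called 3 of 17 members lower, so the background differed between the fits more than the members' count did. Without WT replicate 1, 3 members were called higher and 5 lower, Hand1 and Meox1 among the lower, where 24.1% and 25.1% of all accessions were called. Without WT replicate 2, 4 members were called higher, Cdx1 and Mesp2 among them, and 5 lower, Hand1 and Tbx20 among them, where 21.5% and 23.1% of all were.

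**Figure D1:**
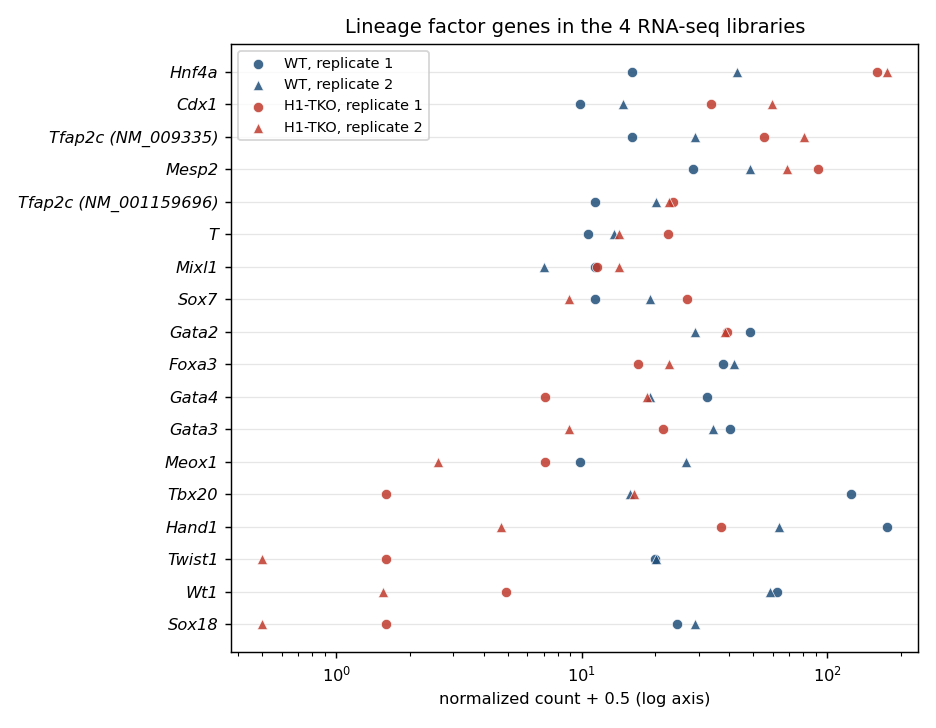
Normalized count plus 0.5 (log axis) of the 17 tested genes in each of the 4 RNA-seq libraries, ordered by log2 fold change. The H1-TKO libraries lie at or below 4.41 for Sox18, Wt1 and Twist1, and at or above 159.8 for Hnf4a.

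Among the genes of the primitive streak and early mesoderm, T (Brachyury), Mixl1 and Mesp2 were tested and none passed. T, which drives mesoderm formation, stood at 10.1 and 13.1 in the WT and at 22.0 and 13.7 in the H1-TKO libraries. Mixl1, a homeobox gene of the streak, stood at 10.9 and 6.54 against 11.0 and 13.7. Its log2 fold change of 0.49 was close to the 0.52 of its chromosome. Mesp2, which acts in somite segmentation, was at 27.9 and 48.0 in the WT and at 91.4 and 68.5 in the H1-TKO libraries. The genotypes did not overlap at Mesp2, with a log2 fold change of 1.09 ± 0.41 (SE, n = 2 libraries each, limma adjusted p = 0.098). Gsc, an organizer gene, had 10 reads in the WT and 15 in the H1-TKO libraries, and Mesp1 had 8 in each.

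Among the endoderm genes, Hnf4a, a nuclear receptor of visceral endoderm, liver and gut, showed the clearest rise. It stood at 15.5 and 42.5 in the WT libraries and at 159.8 and 174.8 in the H1-TKO libraries. Both H1-TKO values were above both WT values. The log2 fold change was 2.65 ± 0.48 (SE, limma adjusted p = 0.012). The WT replicates were themselves far apart, and the change ran from 1.95 to 3.35 as each library was left out. A transcript of the opposite strand, 0610008F07Rik, overlaps Hnf4a, and since the strandedness of counting is not given in the sources used here, their reads cannot be told apart. Foxa3, a forkhead gene of endoderm, was at 37.2 and 41.4 in the WT and at 16.5 and 22.1 in the H1-TKO libraries, which did not pass (adjusted p = 0.154 by limma). Gata4 stood at 31.8 and 18.5 against 6.61 and 17.9, and Sox7 at 10.9 and 18.5 against 26.4 and 8.43. Both are early endoderm factors and neither passed. Foxa1, a pioneer factor of endoderm, had 11 reads in the WT and 0 in the H1-TKO libraries, at least 3.09-fold lower when 3 reads over both libraries are taken as the floor.

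**Figure D2:**
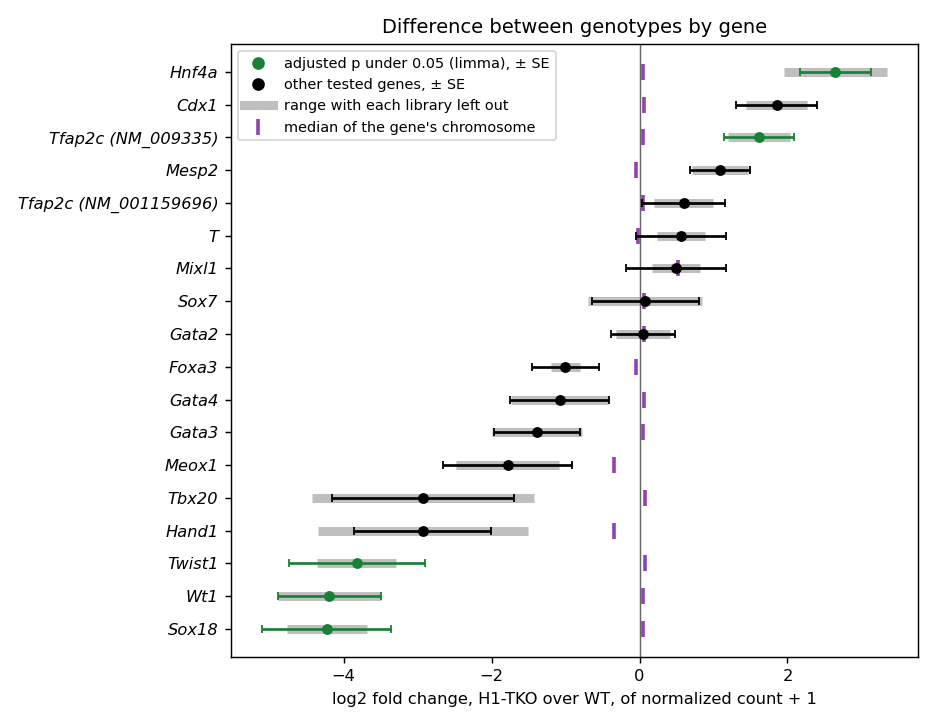
Log2 fold change (H1-TKO over WT, of the normalized count plus 1) with its SE for each tested accession, with the range on leaving out each library (grey) and the median of the chromosome relative to all accessions (purple). Mixl1 lies at the median of chromosome 1, while Hnf4a, Sox18, Wt1 and Twist1 lie far from the medians of theirs.

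In the trophoblast and posterior group, Tfap2c, an AP-2 factor of trophoblast and germ cells, stood at 15.5 and 28.4 in the WT and at 55.1 and 80.0 in the H1-TKO libraries for accession NM_009335. Its log2 fold change of 1.61 ± 0.47 (SE) was barely past the limit (limma adjusted p = 0.0497) and missed it under edgeR on recovered reads (adjusted p = 0.056). The other accession, NM_001159696, stood at 10.9 and 19.6 against 23.1 and 22.1 and did not pass. Cdx1, a posterior homeobox gene, was at 9.31 and 14.2 in the WT and at 33.1 and 59.0 in the H1-TKO libraries. At a log2 fold change of 1.85 ± 0.54 (SE) it missed the limit with a limma adjusted p of 0.051, and the genotypes did not overlap. Gata3, which is needed for trophectoderm, was at 39.6 and 33.8 against 20.9 and 8.43 (limma adjusted p = 0.127). Gata2 was at 48.1 and 28.4 against 38.6 and 37.9. Cdx2, the caudal factor of trophectoderm, had 34 reads in WT replicate 1, none in WT replicate 2, 3 in H1-TKO replicate 1 and none in H1-TKO replicate 2.

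Hand1, a basic helix-loop-helix factor of trophoblast giant cells and heart, stood at 175.3 and 63.3 in the WT and at 36.4 and 4.21 in the H1-TKO libraries. The genotypes did not overlap, and the log2 fold change of -2.93 ± 0.92 (SE) did not pass (limma adjusted p = 0.062). On recovered reads it passed under DESeq2 (-2.55, adjusted p = 0.0044) but not under edgeR (-2.55, adjusted p = 0.076). Tbx20, a T-box factor of the heart, was at 124.1 in WT replicate 1 and at 15.3 in WT replicate 2, against 1.10 and 15.8. These are the values of NM_194263, and the other Tbx20 accessions stood at 0, where shared reads may be left uncounted. Its genotypes overlapped. WT replicate 1 also stood apart in keratins that mark trophoblast and other epithelia: Krt8 was at 1438 and 314 in the WT libraries and at 72.7 and 113 in H1-TKO mESCs, and Krt19 at 2125 and 257 against 137 and 120. Summed over the trophoblast list, the normalized counts were 6332 and 1415 in the WT and 1042 and 1153 in the H1-TKO libraries. Krt8, Krt18 and Krt19 made up 5854 and 1083 of the WT sums and 562 and 650 of the H1-TKO sums. The rest of the list summed to 479, 332, 480 and 503 in the same order. Plet1 in it rose from 55.1 and 54.5 to 198 and 225, and Tpbpa, a marker of the placenta, was at 0 in both WT libraries. The part of such cells in the levels of Hand1, Tbx20 and Cdx2 was not tested, and in bulk RNA fewer cells of a type and less RNA per cell cannot be told apart. Without WT replicate 1, Hand1 had a log2 fold change of -2.20 and a limma adjusted p of 0.00166, in a fit whose spread comes from the H1-TKO pair and the trend and in which 25.1% of all accessions were called lower. It was -4.35 without H1-TKO replicate 1 (limma adjusted p = 0.00198), -3.66 without WT replicate 2 (limma adjusted p = 2.46e-10) and -1.51 without H1-TKO replicate 2, where it did not pass (limma adjusted p = 0.177). Nkx2-5, a cardiac homeobox gene, had 11 reads in the WT and 0 in the H1-TKO libraries.

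Among the tested genes the largest differences were falls in a mesenchymal, a kidney and gonad, and an endothelial gene. Each reached the mean of 10 through its WT libraries. The H1-TKO means were 2.73 for Wt1 and 0.55 for Sox18 and Twist1, and a gene that low in both genotypes would not have been tested. Wt1, a zinc finger factor of kidney and gonad, was at 62.1 and 57.8 in the WT and at 4.41 and 1.05 in the H1-TKO libraries. The WT replicates were close together while the H1-TKO replicates, of few reads, lay further apart. The log2 fold change was -4.19 ± 0.69 (SE, limma adjusted p = 0.0096), and it ran from -4.89 without H1-TKO replicate 1 to -3.49 without H1-TKO replicate 2. Sox18, an endothelial factor, was at 24.1 and 28.4 in the WT and at 1.10 and 0 in the H1-TKO libraries. The H1-TKO value is 1 read, so the WT level was 48.0 times higher with an exact 95% interval of 8.27 to 1928 that covers counting error only, and the limma adjusted p was 0.018. Twist1, a mesenchymal factor, was at 19.4 and 19.6 against 1.10 and 0, also 1 read, a ratio of 36.2 with an interval of 6.16 to 1463. Its limma adjusted p of 0.028 rose to 0.087 without H1-TKO replicate 2. Meox1, a somite factor on chromosome 11, stood at 9.31 and 26.2 against 6.61 and 2.11 and did not pass. Foxc1, a forkhead factor of mesenchyme, had 19 reads in the WT and 1 in the H1-TKO libraries, while its relatives Foxc2 and Foxf1 had 6 and 4 against 16 and 17. Foxc2 and Foxf1 are both overlapped by Gm20388 on the same strand, Gata3 by 9230102O04Rik on the same strand and by genes of the opposite strand, and Meox1 by a gene of the opposite strand. Of 8 fibroblast markers 4 were tested, with 2 lower and 1 higher in H1-TKO mESCs, and the whole list summed to 571, 479, 512 and 576 normalized counts in WT replicates 1 and 2 and H1-TKO replicates 1 and 2. Thy1 rose from 109 and 125 to 450 and 511. Without Thy1 the sums were 462, 353, 62.8 and 65.3. Acta2, at 217 and 180.0 in the WT libraries, fell by 6.79 on the log2 scale, and Col1a1 from 196 and 148 to 34.2 and 53.7, while Postn and Dcn, which have several accessions each and so may have lost shared reads, were listed at 0 in all 4 libraries. Their part in the levels of Twist1 and Foxc1 was not tested.

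Other genes of the same lineages were read from lists of signalling, matrix and structural genes. The shares to set them against are the 9.84% higher and 10.7% lower of all accessions, with a median log2 fold change of -0.03. The lists were chosen with earlier results of these data known, so their counts are not an independent check. Of 14 tested genes of streak, mesoderm and definitive endoderm, 5 fell and none rose in H1-TKO mESCs, with a median of -0.48. They were Wnt3, a WNT ligand of the streak, Fgf17, the NODAL antagonists Lefty1 and Lefty2, and the NODAL co-receptor Tdgf1. Fgf17 fell from 593 and 482 to 95.9 and 54.8. Lefty1 fell from 179 and 342 to 30.9 and 66.4. Of 10 tested genes of primitive and visceral endoderm, 2 fell, Lama1 and Lrp2, and none rose. Of 9 tested trophoblast genes Krt8 fell and Plet1 rose. Of 17 tested pluripotency genes 6 rose and 2 fell, with a median of 0.43, and Tdgf1 stands in this list too.

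H3K27me3 peaks were found far more often at these genes than at others. A peak lay within 2 kb of 34 of the 53 genes in the WT list (64.2%), against 17.7% of 19927 protein-coding genes, and of 25 in the H1-TKO list (47.2%), against 16.3%. With 1 list per genotype there is no replicate check and no test. A peak score is −log10 of the p-value given by MACS, multiplied by 10, and the lowest listed score was 50.01 in WT. In all, 21 genes had a peak in both lists, 13 in the WT list only, 4 in the H1-TKO list only and 15 in neither. Msgn1, Evx1, Lhx1, Foxa3, Hnf4a, Cdx4, Hand2, Tbx20, Isl1, Pitx1, Foxc1, Meox1, Eya1, Wt1 and Foxl2 had none. The 13 genes are 38.2% of those with a WT peak, against 24.9% over all genes, and the 4 genes stand against 3.67% of all genes without a WT peak.

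**Figure D3:**
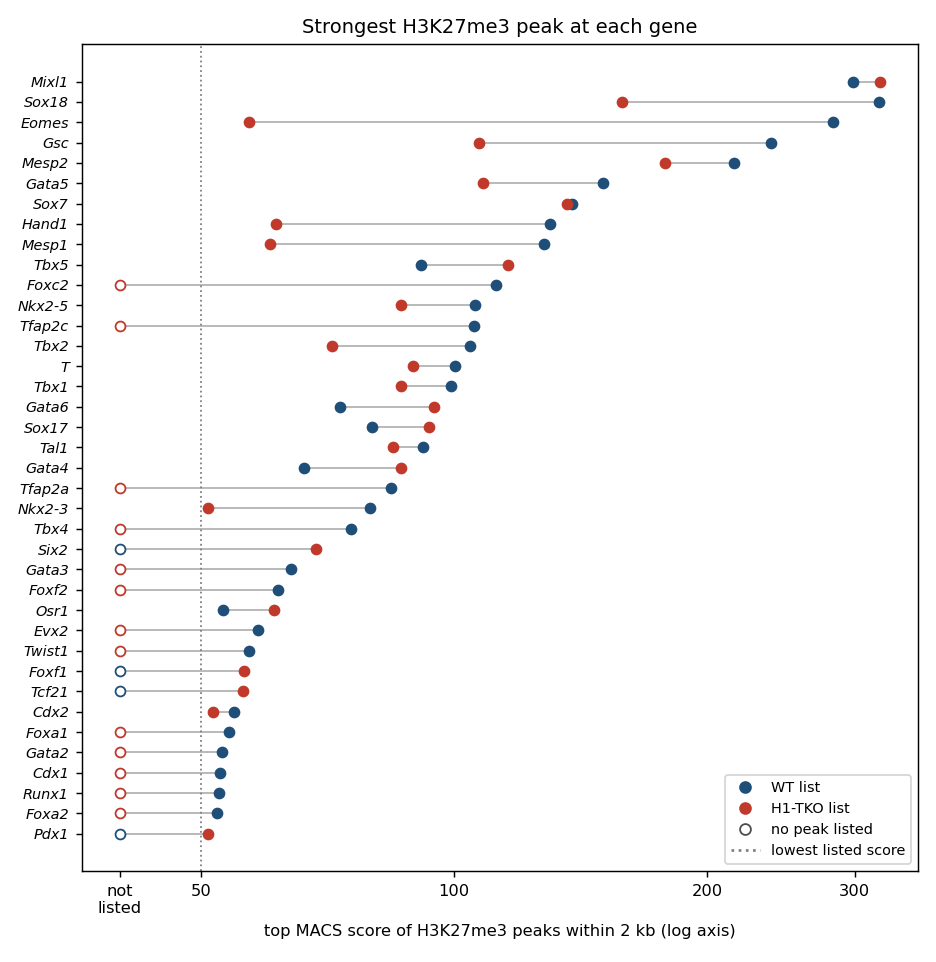
Top MACS score (log axis) of the H3K27me3 peaks within 2 kb of each of the genes with a peak, in the WT (blue) and the H1-TKO list (red), with open circles where no peak was listed. Most genes listed only once lie close to the lowest listed score, while Eomes is at 282.8 and 57.1.

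In 18 of the 21 genes present in both lists a WT peak was overlapped by an H1-TKO peak, against 90.6% of all genes in both lists. At Cdx2, Osr1 and Tbx2 no H1-TKO peak overlapped the WT peak, and the scores of these genes compare different sites. Mixl1 had scores of 298.3 in the WT and 321.8 in the H1-TKO list. Sox18 went from 320.3 to 158.3, Eomes from 282.8 to 57.1 and Gsc from 238.4 to 107.1. Mesp1, Hand1 and Nkx2-3 were also at least 1.5-fold lower, at 128.1 against 60.4, 130.2 against 61.4, and 79.4 against 50.9. These are 6 of 21 genes lower by this measure, against 23.4% of all genes in both lists, and none was 1.5-fold higher, against 12.2%. The score was lower in 15 and higher in 6 of the 21, against 1554 and 1100 of 2654 over all genes. The median ratio of 0.873 compares with 0.916 over all genes. At the same site, between the strongest WT peak and the H1-TKO peaks over it, a comparison chosen after the data were seen, the score was lower in 14 and higher in 4 of 18 genes. Over all genes it was lower in 1425 and higher in 870 of 2295. The median ratio was 0.822, against 0.876 over all genes, and 7 genes were at least 1.5-fold lower, against 26.8% of all genes compared in this way. Gata5, an endoderm factor, was then among them at 150.5 against 69.3. The 4 higher ones were Mixl1 and 3 endoderm genes, Gata4 at 66.3 against 86.4, Gata6 at 73.2 against 94.6 and Sox17 at 79.9 against 93.4. Tbx5 was at 91.3 against 89.0 at its WT site, while its strongest H1-TKO peak, at 115.9, overlapped no WT peak. Mesp2 was at 215.6 against 178.3. At Eomes the WT peak of 2149 bp over the start was met by 2 weaker H1-TKO peaks of 884 and 589 bp, neither of which covered the start.

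The 13 genes with a WT peak only had a median top score of 58.4, close to the lowest score that could be listed, against 64.6 for all genes of that kind. Foxc2, a forkhead factor of mesenchyme, had the strongest at 112.1, followed by Tfap2c at 105.7, Tfap2a at 84.0 and Tbx4 at 75.4. Foxa1, Foxa2, Cdx1, Gata2, Gata3, Evx2, Foxf2, Twist1 and Runx1 lay between 52.3 and 64.0. Of 13 genes with a WT score between 50 and 75, 9 had no H1-TKO peak, against 52.9% over all genes in that range. Above 150 all 6 had an H1-TKO peak over a WT peak, and 3.46% of all genes in that range had no H1-TKO peak. The 4 genes with an H1-TKO peak only were Six2 at 68.5, Foxf1 at 56.2, Tcf21 at 56.1 and Pdx1 at 51.0.

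Split by role, the trophoblast and posterior genes had the lowest ratio of summed peak length between the lists. Of these 8 genes, 7 had a WT peak and 1, Cdx2, had an H1-TKO peak, and the summed peak length went from 14444 to 1539 bp. The Cdx2 peaks of the 2 lists did not overlap, so none of the 7 genes had an H1-TKO peak over its WT peak, against 68.3% of all genes with a WT peak that had one. This depends on the role given to each gene. Hand1, named above as a factor of trophoblast giant cells, was counted with the heart genes and had an H1-TKO peak over its WT peak. The WT scores of the 7 ran from 52.6 to 105.7, and 5 of them lay between 52.6 and 64.0, low in the range of 50 to 75 where 52.9% of all genes had no H1-TKO peak. In the primitive streak group 6 of 9 genes had a peak in both lists, with 16541 and 13118 bp. Endoderm genes had 7 and 6 of 10, with 16712 and 15093 bp. Heart, limb and lateral mesoderm genes had 8 of 14 in each list, and their length was 24727 bp in the WT and 29519 bp in the H1-TKO list. The mesenchyme, somite, kidney and gonad group had 3 and 2 of 9, of which 1 was in both lists, with 7425 and 3392 bp. Blood and endothelium genes had 3 and 2 of 3, with 6438 and 5333 bp. All together the length went from 86287 to 67994 bp, a ratio of 0.788, against 0.859 over all genes. Gene by gene the order was the other way, since the median ratio of length over genes in both lists was 0.954 here and 0.909 over all genes. With peaks of a score of at least 100 this median was 0.907 here and 0.952 over all genes, so the order turned, and the ratio of summed length was 0.370, against 0.822 over all genes.

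**Figure D4:**
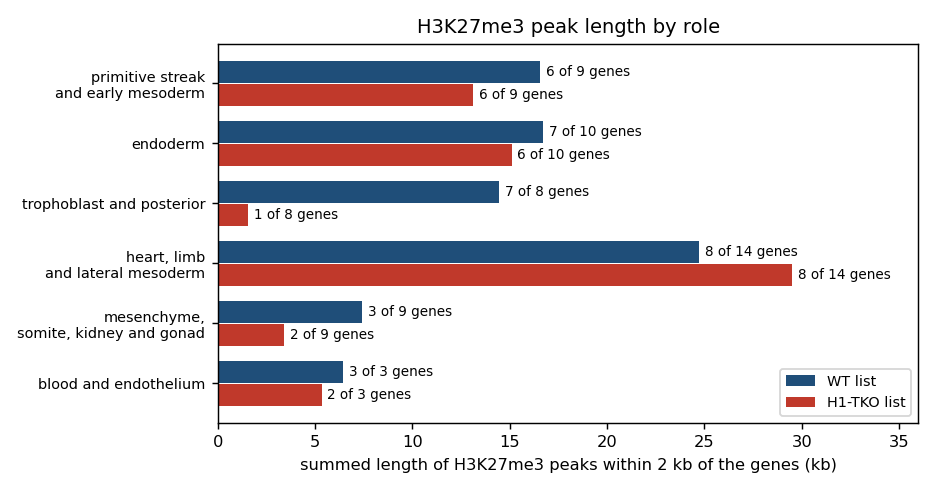
Summed length of H3K27me3 peaks (kb) within 2 kb of the genes of each role in the WT (blue) and H1-TKO list (red), with the number of genes that have a peak. Trophoblast and posterior genes show the shortest H1-TKO bar, 1539 bp against 14444 bp in WT.

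Peaks at these genes were broader than most. The 41 WT peaks had a median width of 1940 bp, where all 6957 WT peaks had 559 bp, and 80.5% of them were at least 1 kb wide against 26.9% of all. Their median score was 91.3, against 78.8 over all WT peaks. For the 33 that were at least 1 kb wide it was also 91.3, against 151.7 over all 1873 WT peaks of that width. In H1-TKO mESCs the 34 peaks had a median of 1992 bp. The median CpG density of the WT peaks was 4.12 per 100 bp, against 2.82 over all WT peaks. A WT peak covered the transcription start of 12 of the 53 genes and an H1-TKO peak that of 7, where 5.52% and 4.7% of all protein-coding genes had such a peak. Of the 41 WT peaks, 22 were overlapped by an H1-TKO peak, where 55.4% of all WT peaks were.

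**Figure D5:**
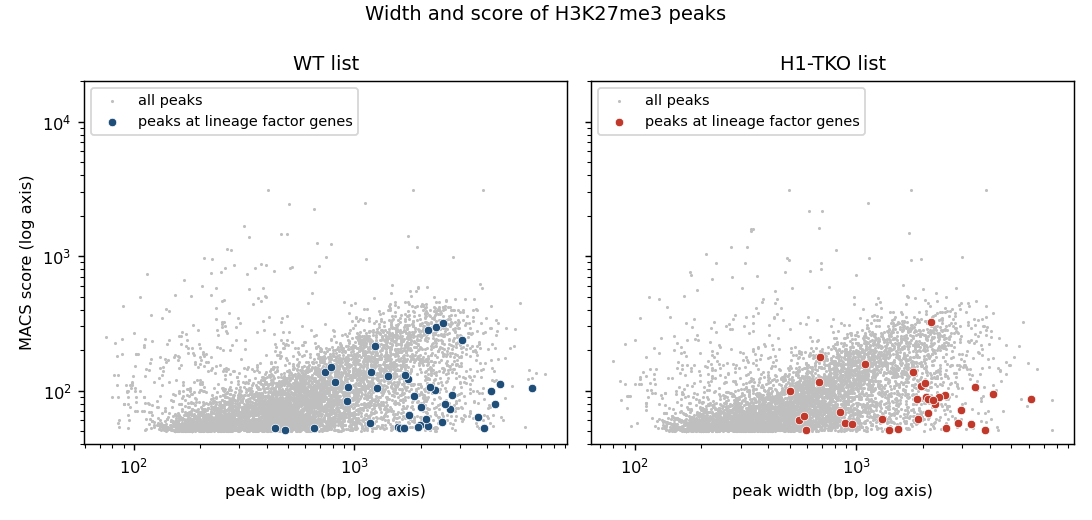
Width (bp) and MACS score of all H3K27me3 peaks (grey) and of peaks within 2 kb of the 53 genes (coloured) in each list, both axes on a log scale. The coloured points lie to the right, with median widths of 1940 bp in WT and 1992 bp in H1-TKO, and none reaches a score of 500.

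Loss of a listed peak and change of expression were set side by side for the tested genes. Of 34 genes with a WT peak 12 were tested, with 1 called higher and 2 lower, where 9.65% and 10.3% of the tested accessions of all protein-coding genes with a WT peak were called. Of 19 genes without one 5 were tested, with 1 higher and 1 lower, where 10.2% and 10.9% were called over all such genes without a WT peak. Tfap2c rose and its peak was listed in WT only. Twist1 fell and its peak of score 57.0 was listed in WT only, with no peak listed in H1-TKO mESCs. Sox18 fell, and its WT peak was overlapped by H1-TKO peaks of lower score. Hnf4a and Wt1 had no peak within 2 kb in either list.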

How the data were processed

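RNA-seq covered 2 WT and 2 H1-TKO libraries. The authors mapped reads with Subread to mm9, counted unique reads with featureCounts and divided by DESeq2 size factors. The deposited signal is this normalized count per RefSeq accession, and 100% of values were whole reads within 0.001. Genotypes follow the table names, since the sample labels are reversed. Accessions with a mean of at least 10 were tested with limma 3.58.1 (eBayes with trend, R 4.3.3) on log2(normalized count + 1), a scale that understates changes of low genes, with Benjamini-Hochberg adjustment, after a test on simulated data. edgeR 4.0.16 and DESeq2 1.42.0 on recovered reads were alternatives, as were other pseudocounts, filters, windows and left-out libraries.

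For ChIP-seq, Bowtie2 alignment to mm9 and MACS peak calling by the authors gave 1 list per genotype. The deposited score of a peak is its −log10 p-value multiplied by 10. The lists hold no reads, so no depth was computed from them and spike-in scaling was not applied. Peaks within 2 kb of the gene span in GENCODE M1 (NCBIM37) were counted. All 53 genes were placed, 3 of them by an older symbol. Every tested member is named, with peaks listed once or 1.5-fold apart. The members and lists were chosen with earlier results of these data known. ChOR-seq was not used here. Tables were made with pandas 2.3.3 and scipy 1.17.1 in Python 3.11.15, and figures with matplotlib 3.10.9.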

Additional observations from a re-analysis of the deposited data

How the results depend on the processing

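With 2 libraries per genotype the calls depended on the model. The number of the 53 genes called higher was 2, where 9.84% of all accessions were. It was 1 with a mean of at least 20 (10.8% of all), a mean of at least 5 (8.66%) or no filter (3.02%). It was also 1 with a pseudocount of 0.5 (9.64%), quantile normalization (11.3%) or accessions summed per gene (9.89%). Tfap2c missed the limit in each of these. It was 0 without a trend and 0 with an unmoderated linear model, with 4 and 0 genes at an unadjusted p under 0.05. The number called lower was 3, where 10.7% of all accessions were, and it was 5 with DESeq2, where 11.6% were. With a mean of at least 20 it was 1 of the 10 genes then tested, where 11.9% of all were. It was 0 without a trend and 0 with the unmoderated model, with 5 and 4 at an unadjusted p under 0.05. As each library was left out, the numbers ran from 1 to 4 higher and from 3 to 5 lower, while the shares of all accessions ran from 1.79% to 24.1% and from 3.47% to 25.1%. The labels do not say whether libraries of the same replicate number were prepared together. Over 11113 accessions the differences between replicates 1 and 2 of the genotypes correlated at 0.011, which cannot decide this. With a replicate block 3 genes were called higher and 5 lower, where 13.7% and 16.0% of all accessions were. The sign of Sox7 turned without H1-TKO replicate 1 (-0.69) and without WT replicate 1 (-0.28), and that of Gata2 without WT replicate 2 (-0.32), with ranges of -0.69 to 0.85 and -0.32 to 0.42. With peaks scored at least 100, 14 genes had a WT peak (26.4%) and 7 an H1-TKO peak (13.2%), against 9.40% and 8.23% of all genes. A WT peak only was found at 8 of the 14, against 584 of 1873 over all genes. An H1-TKO peak only was found at 1 member and at 351 of all genes. The ratio of summed length was 0.37, against 0.822 over all genes. Between overlapping peaks only, a comparison added after seeing the data, the median score ratio was 0.822 against 0.873. The causes were not tested. Both peak lists depend on a listing limit, and low read numbers limit the RNA values.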
